A study of Canis lupus familiaris with 8 samples.

Results

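The comparison set the canine hemangiosarcoma cell line JuB2 against a single library of normal dog cells labelled EC, gene by gene, in a series of 8 RNA-sequencing libraries that was made to study the histone demethylase KDM2B in this tumour. Of these, 5 are used here. Among them 3 JuB2 libraries came from cells expressing a scramble shRNA, a hairpin with no intended target (scramble 1 to 3), and 1 came from non-treated JuB2. The EC library came from non-treated cells whose source is given as CnAOEC and whose cell type is given as normal endothelial cell. The KDM2B shRNA libraries of JuB2 were not used. The labels do not say whether the scramble libraries came from separate cultures, so the spread between them may be technical. All JuB2 libraries are from 1 tumour cell line. EC is 1 library with no replicate, so no difference from it was tested, and a difference between the cells and a difference of that library cannot be told apart.

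A gene entered the comparison when it held at least 10 TPM (transcripts per 1000000) in EC or in all 4 control JuB2 libraries, which 8418 of the 30424 listed genes did. Of these, 6258 reached 10 TPM on both sides, 1047 reached it only in all 4 JuB2 libraries, and 1113 reached it in EC and not in all 4 JuB2 libraries. The values nearest the limit were 10 TPM just inside and 9.99 TPM just outside. TPM, a relative transcript abundance, is scaled by transcript length and to a fixed total, so it allows levels of different genes to be compared within a library, but the number of reads behind a value is unknown.

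Hemangiosarcoma is a malignant tumour of dogs that is regarded as arising from cells that form blood vessels. Endothelial cells line vessels and are recognised by junction and surface proteins such as PECAM1, VE-cadherin (CDH5) and the receptors TEK, TIE1 and KDR, and by the clotting protein VWF. The cells around them differ: smooth muscle cells and pericytes carry contractile proteins such as ACTA2 and TAGLN, and fibroblasts secrete collagens and small proteoglycans such as decorin (DCN) and lumican (LUM).

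The label was first checked against markers, and most of the defining endothelial markers were at or near 0 in EC. PECAM1, VWF, TIE1 and SOX17 were listed at 0 in all 5 libraries. CDH5 was listed at 0 in every JuB2 library and at 0.64 TPM in EC, and TEK was at 0 to 0.1 TPM in JuB2 and 2.38 TPM in EC. Of the 11 endothelial markers with a row, only FLT1, a VEGF receptor, at 13.2 TPM, and ERG, an endothelial transcription factor, at 21.9 TPM, reached 10 TPM in EC. The 11 summed to 16.1 to 19.4 TPM in JuB2 and to 39.6 TPM in EC. An exact 0 may be a failed estimate. Other genes on the endothelial lists were present in EC: PTPRB was at 1.04 to 2.11 TPM in JuB2 and 46.8 TPM in EC, ENG at 20.3 to 23.8 TPM in JuB2 and 37.04 TPM in EC, THBD at 10.3 to 21.5 TPM in JuB2 and 26.96 TPM in EC, and PROCR at 6.78 to 17.7 TPM in JuB2 and 22.7 TPM in EC. All 4 were higher in EC than in every JuB2 library. The markers KDR and SOX18 went the other way, at 2.61 to 4.77 and 0.27 to 2.68 TPM in JuB2 and 1.24 and 0.26 TPM in EC. Of the 6 surface and junction genes that reached 10 TPM in EC or in all 4 JuB2 libraries, 5 were below EC in all 4 and 1 was above.

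Markers of other vessel wall cells stood far above these in EC. The 7 smooth muscle and pericyte markers summed to 123 to 402 TPM in JuB2 and to 12672 TPM in EC. ACTA2, smooth muscle actin, was at 18.5, 21.3 and 18.9 TPM in the scramble libraries and 11.1 TPM in untreated JuB2, against 5319 TPM in EC. TAGLN, an actin-binding protein of contractile cells, was at 292, 309 and 273 TPM in the scramble libraries and 75.04 TPM in untreated JuB2, against 6546 TPM in EC. EC was above every JuB2 library for both genes, and untreated JuB2 was below every scramble library. The smooth muscle and pericyte markers DES and RGS5 were listed at 0 in EC.

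The 6 fibroblast markers summed to 1072 to 1328 TPM in JuB2 and to 20888 TPM in EC. All 6 reached 10 TPM in EC, and 4 of 6 did in every JuB2 library. The blood markers with a row, which are PTPRC, CSF1R and SPI1, summed to at most 0.33 TPM in JuB2 and to 0.42 TPM in EC, and the epithelial marker CDH1 was listed at 0 in all 5. Of the 4 lymphatic endothelial markers, PROX1 was listed at 0 in all 5, LYVE1 was at 20.2 to 23.0 TPM in JuB2 and 9.67 TPM in EC, FLT4 was at 0 in JuB2 and 2.82 TPM in EC, and PDPN, which fibroblasts also carry, was listed at 0 in JuB2 and at 267 TPM in EC. The library is therefore called by its label, EC, and no statement below is about endothelial cells as such.

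**Figure D1:**
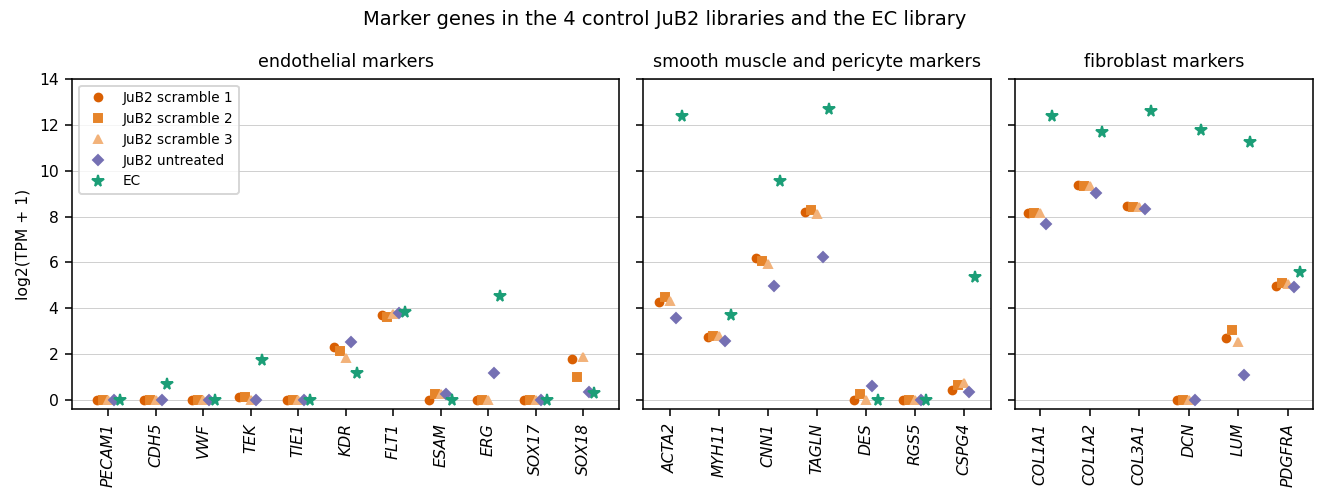
Levels of the endothelial, smooth muscle and pericyte, and fibroblast markers, as log2(TPM + 1) on the vertical axis, with 1 symbol per library (3 JuB2 scramble libraries, untreated JuB2, and EC as a star) and no error bars. Among the endothelial markers only FLT1, and ERG in EC, reach 10 TPM; KDR, SOX18 in the scramble libraries, ERG in untreated JuB2 and TEK in EC lie between 1 and 10 TPM, and the others are lower, while ACTA2, TAGLN and the collagens are highest in EC.

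Differences are given as log2(TPM + 1) in a JuB2 library minus log2(TPM + 1) in EC, so a positive value means higher in JuB2 and the fold of a low gene is understated. A gene was called when it was at least 4-fold apart, a difference of 2, in the same direction in all 4 JuB2 libraries. By this rule 419 genes were higher in JuB2 (4.98% of 8418) and 524 were lower (6.22%), 943 in all (11.2%). Against the 3 scramble libraries without the untreated one, 470 were higher (5.58%) and 547 lower (6.5%). At 2-fold, 1635 were higher (19.4%) and 975 lower (11.6%), whereas at 8-fold 163 were higher (1.94%) and 364 lower (4.32%). At 16-fold 58 were higher (0.689%) and 243 lower (2.89%). In the deposited values and with this filter the side with more genes thus changed with the fold required: small differences more often had JuB2 higher, and large ones more often had JuB2 lower. The filter asks 10 TPM of EC or of all 4 JuB2 libraries. With 10 TPM asked of EC or of at least 1 JuB2 library, 517 were higher and 524 lower at 4-fold, and other folds were not recounted. The smallest difference among the called genes was 2.002 for the higher and -2.004 for the lower side, and the nearest genes outside differed by 1.992 and -1.996.

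The spread among the JuB2 libraries, all of 1 cell line, is given beside these differences and holds no variation of EC. The median gene spanned 0.35 on the log2 scale over the 4 JuB2 libraries and 0.21 over the 3 scramble libraries, and 95% of genes spanned at most 0.96. EC lay outside the range of the 4 JuB2 libraries for 85.7% of genes, with JuB2 above EC in all 4 for 53.1% and below it in all 4 for 32.6%. All 4 JuB2 libraries were within 2-fold of EC for 4293 genes (51.0%). Across the 8418 genes Pearson's r was 0.978 to 0.986 between JuB2 libraries and 0.585 to 0.586 between JuB2 and EC, as a description across genes, which are not independent replicates. The filter takes in genes that reach 10 TPM on 1 side only, which can lower r between JuB2 and EC. When the scramble libraries were set against untreated JuB2 by the same rule, 0 genes were higher and 1 was lower (0.0119%), and at 2-fold 23 were higher (0.273%) and 21 lower (0.249%).

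The called genes held different shares of TPM. The calling rule fixes the direction of this contrast, so the shares only describe its size. The 524 genes lower in JuB2 held 0.952% to 1.03% of all TPM in JuB2 and 14.99% in EC, and 181 of them were at 100 TPM or more in EC. The 419 genes higher in JuB2 held 3.34% to 3.54% of TPM in JuB2 and 0.459% in EC. Of the genes lower in JuB2, 156 were listed at 0 in all 4 JuB2 libraries, and of those higher, 37 were listed at 0 in EC. The median gene was 0.28 higher in JuB2 on the log2 scale. A trimmed-mean scaling, which centres the bulk of genes, lowered JuB2 by 0.35 to 0.39 relative to EC and gave 257 genes higher and 620 lower, so that 29.3% of the calls were higher, against 44.4% as deposited. Differences below are from the values as deposited and are to be read against that shift of all genes.

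**Figure D2:**
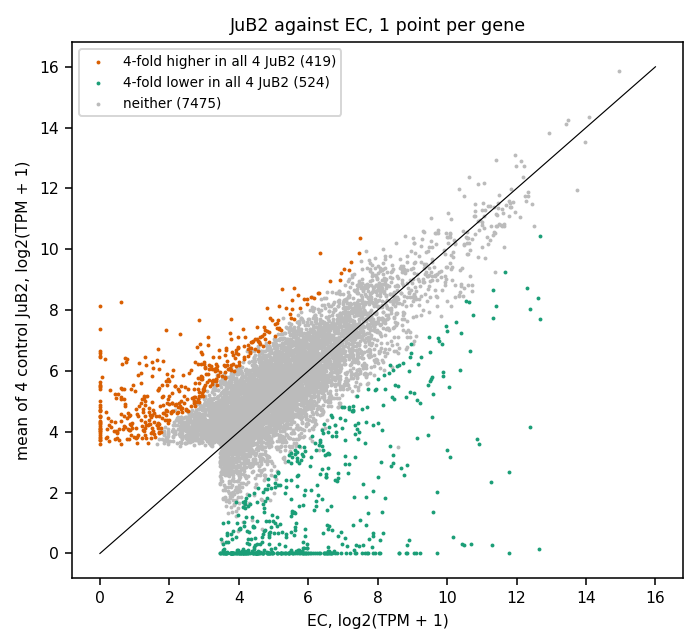
Mean log2(TPM + 1) of the 4 control JuB2 libraries (vertical axis) against log2(TPM + 1) in EC (horizontal axis), 1 point for each of 8418 genes, with the line of equality. The 524 genes lower in JuB2 reach further from the line than the 419 higher ones, with SFRP2 and DCN at the right end of the lower edge.

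Of the gene lists, the one of fibroblast genes and fibrillar collagens had the most genes lower in JuB2. Of 19 fibroblast and fibrillar collagen genes with a row, 18 passed the 10 TPM filter, 16 were lower and 0 higher, with a median difference of -3.96 against 0.28 over all genes. Counts over the members of a list that passed the filter, here and below, are to be read beside the shares over all 8418 genes, 6.22% called lower and 4.98% called higher, and are a description. A member under 10 TPM in a JuB2 library passed only through EC, and one under 10 TPM in EC only through JuB2. The filter thus largely set the side of such members, which were not counted per list. Here they include DCN, LUM, COL6A1 and PDPN. Over all genes, 100 of the 524 called lower reached 10 TPM in all 4 JuB2 libraries too. Of the 419 called higher, 105 reached it in EC too. DCN, the proteoglycan that decorates collagen fibrils, was listed at 0 in all 4 JuB2 libraries and at 3527 TPM in EC. LUM, a related proteoglycan, was at 5.54, 7.36 and 4.77 TPM in the scramble libraries and 1.13 TPM in untreated JuB2, against 2459.8 TPM in EC. Both were abundant in EC, and the highest value of either in a JuB2 library was 7.36 TPM.

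The collagens did not all behave alike. COL6A1, a chain of the microfibril-forming collagen VI, was at 0.2, 0.09 and 0.29 TPM in the scramble libraries and 0.38 TPM in untreated JuB2, against 1376 TPM in EC, a difference of -10.30 to -9.96. COL11A1, a minor fibrillar chain, was at 0.06, 0.41 and 0.43 TPM in the scramble libraries and 0 TPM in untreated JuB2, against 462 TPM in EC. COL1A1, the main chain of collagen I, was abundant in JuB2 too, at 287, 284 and 281 TPM in the scramble libraries and 201 TPM in untreated JuB2, against 5334 TPM in EC. COL1A1 and COL3A1 were thus well expressed in both kinds of cell and differed by -4.73 to -4.21 and -4.29 to -4.17, while the COL6A1 message was near 0 in JuB2. COL1A2 was closest to the threshold among them, with -2.64 to -2.31, and its smallest difference was -1.97 under quantile normalization.

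Matricellular proteins, which sit in the matrix and act on cells without forming fibres, showed the lowest median of any list, -5.63, with 13 of the 17 genes past the filter lower and 1 higher. That median falls on a gene listed at 0 in every JuB2 library, so its size reflects the EC level alone and is not a fold. THBS2, a thrombospondin that binds matrix and cells, was at 0.53, 0.26 and 0 TPM in the scramble libraries and 0.11 TPM in untreated JuB2, against 1433 TPM in EC. VCAN, the large proteoglycan versican, was at 0.77, 0.13 and 0.5 TPM in the scramble libraries and 0.53 TPM in untreated JuB2, against 1149.6 TPM in EC. LTBP2, a microfibril protein, and CCN3 were listed at 0 in every JuB2 library and at 461 and 162 TPM in EC. FN1, fibronectin, and SPARC, both named after their values were seen, differed by -3.70 to -3.32 and -3.65 to -3.55 and still held 389 to 504 and 204 to 218 TPM in JuB2, against 5048 and 2568 TPM in EC. The member that went the other way was FBLN1, fibulin 1, at 79.2, 71.3 and 70.7 TPM in the scramble libraries and 66.2 TPM in untreated JuB2, against 1.53 TPM in EC.

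Basement membrane genes, the sheet on which endothelium and muscle rest, were lower for 7 of 12 and higher for 1. NID1, nidogen, which links laminin to collagen IV, was listed at 0 in all JuB2 libraries and at 243 TPM in EC. HSPG2, the proteoglycan perlecan, was at 10.1, 9.76 and 11.1 TPM in the scramble libraries and 11.3 TPM in untreated JuB2, against 329 TPM in EC. COL15A1 and COL8A1, vessel-associated collagens, differed by -5.81 to -4.75 and -6.81 to -5.76. AGRN, agrin, was the exception, at 56.1 to 62.6 TPM in JuB2 and 7.66 TPM in EC.

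Of the matrix proteases and their inhibitors, 7 of 8 past the filter were lower. MMP2, a gelatinase, was at 50.96, 48.2 and 46.8 TPM in the scramble libraries and 34.7 TPM in untreated JuB2, against 384 TPM in EC, and MMP14, the membrane protease that activates MMP2, was at 26.6 to 30.6 TPM in JuB2 and 285 TPM in EC. TIMP3, a matrix-bound inhibitor, differed by -4.55 to -3.51, and ADAMTS5, an aggrecan-cleaving protease, was listed at 0 in JuB2 and at 29.02 TPM in EC. Integrins, the receptors through which cells hold the matrix, were lower for 8 of 11, with a median difference of -2.49. ITGAV, the alpha chain of vitronectin and fibronectin receptors, was at 34.5, 37 and 41.8 TPM in the scramble libraries and 35.8 TPM in untreated JuB2, against 767 TPM in EC, whereas ITGA7, ITGA11 and ITGA2 were at most 2.55 TPM in any JuB2 library and at 29.9, 10.7 and 45.4 TPM in EC.

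Contractile genes followed the same direction. Of 17 smooth muscle and pericyte genes with a row, 13 passed the filter, 10 were lower and 0 higher, with a median of -3.84. TPM2, beta tropomyosin, was at 6.67, 9.10 and 5.02 TPM in the scramble libraries and 2.70 TPM in untreated JuB2, against 3533 TPM in EC. CALD1, caldesmon, which binds actin and tropomyosin, was at 12.4, 16.6 and 11.96 TPM in the scramble libraries and 10.47 TPM in untreated JuB2, against 1870.1 TPM in EC. Both are called genes, so the rule itself puts every JuB2 library below EC for them. Of all 13, 11 were below EC in all 4 JuB2 libraries and 0 above. In RNA from a bulk of cells, fewer cells of a type and less RNA per cell cannot be told apart, and the part that the cell makeup of the EC library has in the matrix and contractile differences was not tested.

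NOTCH3, a receptor of mural cells, was at 0.12, 0.1 and 0 TPM in the scramble libraries and 0.11 TPM in untreated JuB2, against 51.7 TPM in EC. PDGFRB, the receptor by which pericytes are recruited, was at 1.09, 0.54 and 0.38 TPM in the scramble libraries and 0.57 TPM in untreated JuB2, against 44.2 TPM in EC. PDGFD and PDGFC, ligands of that receptor family, were at most 3.02 TPM in any JuB2 library, and at 14 and 30.9 TPM in EC. These genes are named because they were called, and PDGFRA, a related receptor, was at 29.5 to 33.2 TPM in JuB2 and 47.7 TPM in EC and was not called.

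Mesenchymal transition genes were lower for 4 of 9 and higher for 0. CDH11, a cadherin of mesenchymal cells, was at 0, 0 and 0.13 TPM in the scramble libraries and 0.64 TPM in untreated JuB2, against 228 TPM in EC. TWIST2 was listed at 0 in JuB2 and at 20.9 TPM in EC, and PRRX1 and SNAI2, transcription factors of mesenchyme, differed by -4.79 to -3.61 and -3.07 to -2.25. VIM, the intermediate filament vimentin and the fourth most abundant gene of EC, was at 4361, 3392 and 3973 TPM in the scramble libraries and 3986 TPM in untreated JuB2, against 13822 TPM in EC, and was past 4-fold in only part of the JuB2 libraries.

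**Figure D3:**
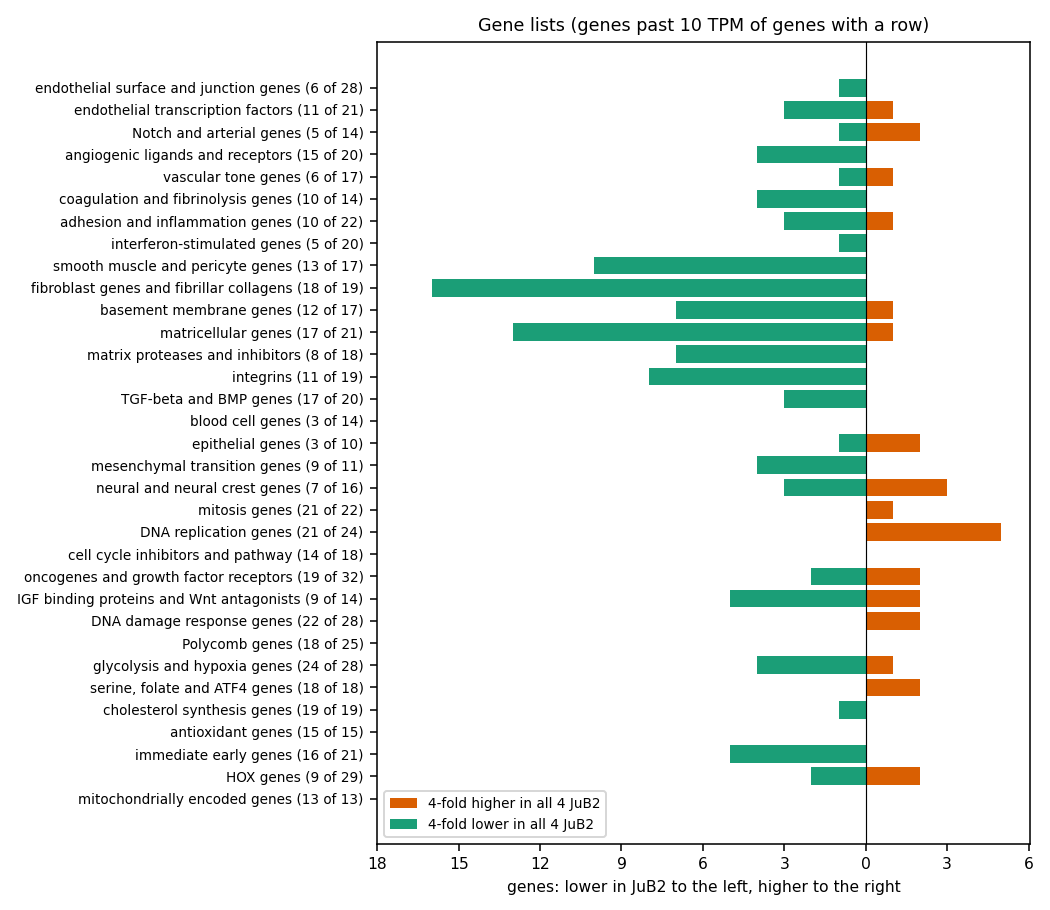
Number of genes of each list at least 4-fold lower (left) or higher (right) in all 4 control JuB2 libraries than in EC; beside each list name, genes past the 10 TPM filter of genes with a row. The longest bars are lower genes of the fibroblast, matricellular, smooth muscle, integrin, basement membrane and protease lists (16, 13, 10, 8, 7 and 7), and DNA replication has the most higher genes (5).

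Endothelial genes gave few calls, and few of them reached 10 TPM on either side. Of 28 surface and junction genes with a row, 22 stayed under the filter, and 8 of those were listed at 0 in all 5 libraries. Among the 6 past it, PTPRB, the vascular endothelial phosphatase VE-PTP, was at 1.69, 1.46 and 1.04 TPM in the scramble libraries and 2.11 TPM in untreated JuB2, against 46.8 TPM in EC, and was the 1 gene called. FLT1 was at 11.9, 11.4 and 12.7 TPM in the scramble libraries and 12.8 TPM in untreated JuB2, against 13.2 TPM in EC (a difference of -0.19 to -0.04). ENG and THBD, an accessory TGF-beta receptor and the thrombin receptor thrombomodulin, differed by -0.84 to -0.62 and -1.31 to -0.31. EGFL7, a secreted endothelial protein, was at 10.6, 10.3 and 6.70 TPM in the scramble libraries and 11.4 TPM in untreated JuB2, against 1.93 TPM in EC, and missed the filter through scramble 3.

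Endothelial transcription factors were less uniform, with 11 of 21 past the filter, 1 higher and 3 lower. HHEX, a homeobox factor of early endothelial and blood cells, was at 20.6, 21.3 and 24.8 TPM in the scramble libraries and 29.8 TPM in untreated JuB2, against 1.69 TPM in EC. ERG was listed at 0 in the scramble libraries and at 1.28 TPM in untreated JuB2, against 21.9 TPM in EC. FOXF1, a factor of lung and visceral mesenchyme and vessels, was listed at 0 in JuB2 and at 10.1 TPM in EC, just past the filter. FLI1, the close relative of ERG, was also listed at 0 in JuB2 and was at 4.43 TPM in EC, under the filter. KLF4 was at 11.3, 7.97 and 10.9 TPM in the scramble libraries and 18.6 TPM in untreated JuB2, against 80.1 TPM in EC, and rescaling without mitochondrial genes took it out of the calls. Of the other ETS-family factors, ETV2, which drives early endothelial fate, was at 106 to 114 TPM in JuB2 and 65.2 TPM in EC, and ETS1 differed by 0.77 to 1.07. TAL1 and ETS2 had EC inside the JuB2 range, with differences of -0.40 to 0.05 and -0.09 to 0.12.

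Among Notch and arterial genes, EFNB2, the ephrin that marks arteries, was at 42.95, 39.99 and 43 TPM in the scramble libraries and 36.8 TPM in untreated JuB2, against 2.21 TPM in EC. UNC5B, a netrin receptor of arterial and sprouting vessels, was at 25.5, 25.6 and 28.1 TPM in the scramble libraries and 42.9 TPM in untreated JuB2, against 2.85 TPM in EC. With NOTCH3 lower, the list had 2 higher and 1 lower of 5 past the filter. Angiogenic ligands and receptors had 4 lower of 15 and 0 higher: besides the PDGF genes above, VEGFB, a VEGF-family ligand, was at 0 to 0.38 TPM in JuB2 and 52.3 TPM in EC.

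Vascular tone genes had 1 called on each side of 6. GUCY1B1, a subunit of the guanylate cyclase that senses nitric oxide, was at 88.1, 93.9 and 86.6 TPM in the scramble libraries and 82.7 TPM in untreated JuB2 and was listed at 0 in EC. NPR3, the natriuretic peptide clearance receptor, was at 0.71, 2.14 and 1.59 TPM in the scramble libraries and 1.80 TPM in untreated JuB2, against 48.2 TPM in EC. Coagulation and fibrinolysis genes were lower for 4 of 10. F3, tissue factor, which starts coagulation, was at 47.5, 47.1 and 50.6 TPM in the scramble libraries and 69.01 TPM in untreated JuB2, against 742 TPM in EC. SERPINE2, a thrombin inhibitor, differed by -4.43 to -4.15. TFPI2, a protease inhibitor of the matrix, was at 1.37, 0 and 0 TPM in the scramble libraries and 0 TPM in untreated JuB2, against 1649 TPM in EC. F3, SERPINE2 and TFPI2 are called genes, so the rule itself puts every JuB2 library below EC for them. Of all 10, 9 were below EC in all 4 JuB2 libraries and 0 above.

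Adhesion and inflammation genes were lower for 3 of 10 and higher for 1. VCAM1, the leukocyte adhesion molecule, and TNFSF15, a TNF-family cytokine, were listed at 0 in JuB2 and at 36.5 and 39.1 TPM in EC, and LIF, an IL-6-family cytokine, was at 0 to 1.37 TPM in JuB2 and 37.1 TPM in EC. IL1R1, the interleukin 1 receptor, was the higher one, at 30.4, 29.7 and 28.7 TPM in the scramble libraries and 27.1 TPM in untreated JuB2, against 3.01 TPM in EC. Of the interferon-stimulated genes 5 of 20 passed the filter and OAS2, an antiviral RNA-sensing enzyme, was lower, listed at 0 in scramble 1, scramble 3 and untreated JuB2 and at 0.49 TPM in scramble 2, against 29.2 TPM in EC. Of 14 blood cell genes 3 passed, with 0 called.

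TGF-beta and BMP genes were lower for 3 of 17 and higher for 0, beside 6.22% and 4.98% of all genes. GREM1, a secreted BMP antagonist, was listed at 0 in JuB2 and at 547 TPM in EC. ID3, a BMP target, was at 70.7, 64.2 and 65.2 TPM in the scramble libraries and 50.5 TPM in untreated JuB2, against 951 TPM in EC, and ACVRL1, the endothelial BMP receptor ALK1, was at 1.75, 0.68 and 1.45 TPM in the scramble libraries and 0 TPM in untreated JuB2, against 47.9 TPM in EC. These are the called members. Of all 17, 11 were below EC in all 4 JuB2 libraries and 5 above.

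Secreted modulators of IGF and Wnt signalling were lower for 5 of 9 and higher for 2. SFRP2, a Wnt antagonist, was the gene furthest apart of all, at 0, 0.24 and 0.26 TPM in the scramble libraries and 0 TPM in untreated JuB2, against 6443 TPM in EC. IGFBP2 was listed at 0 in the scramble libraries and at 1.15 TPM in untreated JuB2, against 2518 TPM in EC, and IGFBP7, which is common in vessels, was at 56.6 to 86.3 TPM in JuB2 and 1330.3 TPM in EC. IGFBP4 and IGFBP6 differed by -3.90 to -3.60 and -3.79 to -3.60. DKK2, another Wnt modulator, went the opposite way, at 102, 89.2 and 86.6 TPM in the scramble libraries and 76.7 TPM in untreated JuB2, and was listed at 0 in EC. WNT5A, a ligand, was also higher in JuB2, by 3.38 to 3.75. Of these Wnt modulators, DKK2 was thus high in the JuB2 libraries and SFRP2 in the EC library.

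Cell cycle genes were higher in JuB2 in most cases by less than 4-fold. Over all genes 53.1% were above EC in all 4 JuB2 libraries and 32.6% below, or 40.4% and 45.7% under trimmed-mean scaling. Of 21 mitosis genes past the filter, 19 were above EC in all 4 JuB2 libraries and 0 below, with a median of 1.33, but only CCNB2, cyclin B2, was called. Of 21 DNA replication genes 20 were above EC in all 4, with a median of 1.21, and 5 were called. Under the trimmed-mean scaling the medians were 0.97 and 0.84, the genes above EC in all 4 were 17 and 15, and the calls 0 and 2. The medians of both lists stayed above 0 under the 3 other scalings tried.

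CCNE1 and CCNE2, the cyclins E that drive entry into S phase, kept their calls under all 3. CCNE1 was at 54.9, 46.9 and 44.7 TPM in the scramble libraries and 43.5 TPM in untreated JuB2, against 5.69 TPM in EC, and CCNE2 was at 55.5, 55.3 and 56.4 TPM in the scramble libraries and 58.9 TPM in untreated JuB2, against 3.20 TPM in EC. RRM2, a ribonucleotide reductase subunit, was at 350.0, 344 and 321 TPM in the scramble libraries and 303 TPM in untreated JuB2, against 61.8 TPM in EC, and PCNA, the sliding clamp, was at 587 to 673 TPM in JuB2 and 130.3 TPM in EC. MCM2, part of the replicative helicase, differed by 2.11 to 2.80. The EC library was not free of such messages: MKI67 and TOP2A, proliferation markers named outside the rule, were at 15.2 to 24.3 and 48.9 to 57.3 TPM in JuB2 and 15.6 and 37.3 TPM in EC, with EC inside the JuB2 range for MKI67.

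The D-type cyclins were split between the cells. CCND2 was at 43.8, 31.3 and 37.2 TPM in the scramble libraries and 24.5 TPM in untreated JuB2, against 0.37 TPM in EC. CCND1 was at 14.2, 13.98 and 13.6 TPM in the scramble libraries and 8.97 TPM in untreated JuB2, against 172 TPM in EC. The pair, which both activate CDK4 and CDK6, was called on opposite sides of EC. Of the receptor kinases on the oncogene list, those called were EGFR and AXL. EGFR was at 34.5, 35.2 and 35.98 TPM in the scramble libraries and 34.9 TPM in untreated JuB2, against 6.81 TPM in EC, and AXL was at 14.2, 18.1 and 16.4 TPM in the scramble libraries and 15.4 TPM in untreated JuB2, against 169 TPM in EC. EGFR lost its call under trimmed-mean and quantile scaling, with the smallest difference at 1.81 and 1.91. The 32 oncogenes and receptors with a row had 19 past the filter, 2 higher and 2 lower. Their median difference was 0.28 as deposited and changed sign to -0.06 under trimmed-mean scaling.

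Of 14 genes past the filter on the list of cell cycle inhibitors and their pathway, 0 were called, 7 were above EC in all 4 and 6 below, beside 53.1% and 32.6% over all genes and 4.98% and 6.22% called higher and lower. CDKN2A and CDKN1A, inhibitors of cyclin-dependent kinases named after their values were seen, were at 302 to 322 and 51.5 to 90.5 TPM in JuB2 and 135 and 79.3 TPM in EC, with EC inside the JuB2 range for CDKN1A. The list's median of 0.24 changed sign to -0.12 under trimmed-mean scaling.

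DNA damage response genes were above EC in all 4 JuB2 libraries for 19 of 22 past the filter and below for 1, with a median of 0.77, beside 53.1% and 32.6% over all genes, and 2 were called, beside 4.98%. Under trimmed-mean scaling 16 were above and 2 below, with a median of 0.42. CHEK1, the checkpoint kinase of S phase, was at 52.04, 67.5 and 50.5 TPM in the scramble libraries and 43.2 TPM in untreated JuB2, against 9.13 TPM in EC. CHEK1 lost its call under trimmed-mean and quantile scaling. KDM2B itself was at 14.01, 15.01 and 12.9 TPM in the scramble libraries (mean 13.97 ± 1.06, SD, n = 3) and 17.6 TPM in untreated JuB2, against 6.83 TPM in EC, a difference of 0.83 to 1.25 that was not called. Of 18 Polycomb genes past the filter 0 were called, and the median of 0.34 became -0.03 under trimmed-mean scaling.

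Among metabolic genes, the serine, folate and ATF4 list had 13 of 18 above EC in all 4 JuB2 libraries, 0 below and 2 called, beside 53.1%, 32.6% and 4.98% over all genes. Under trimmed-mean scaling 11 were above and 6 below, and the median of 0.76 became 0.40. SHMT1, which makes glycine and one-carbon units from serine in the cytosol, was at 83.97, 79.7 and 77.3 TPM in the scramble libraries and 69.9 TPM in untreated JuB2, against 5.71 TPM in EC. TRIB3, a pseudokinase induced by ATF4, was at 330.1, 309.7 and 299 TPM in the scramble libraries and 376 TPM in untreated JuB2, against 57.9 TPM in EC, and was just short of 4-fold under trimmed-mean scaling. Glycolysis and hypoxia genes were mixed, with 4 of 24 lower and 1, the oxygen sensor EGLN3, higher (2.20 to 2.56), which was not called under trimmed-mean or quantile scaling. EPAS1, the hypoxia factor HIF2 alpha that is abundant in endothelium, was at 1.02, 1.33 and 0.71 TPM in the scramble libraries and 0.14 TPM in untreated JuB2, against 93.3 TPM in EC. SLC16A3, a lactate exporter, and SLC2A3, a glucose transporter, differed by -4.96 to -3.94 and -4.18 to -2.93, and BNIP3, a hypoxia-induced mitophagy receptor, was at 17.1, 12.3 and 28.6 TPM in the scramble libraries and 15.8 TPM in untreated JuB2, against 232 TPM in EC.

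Of 19 cholesterol synthesis genes, all past the filter, DHCR7, which catalyses the last step to cholesterol, was lower (-2.72 to -2.53) and 0 were higher. None of the 15 antioxidant genes was called, with 11 above EC in all 4, or 7 under trimmed-mean scaling. The 13 mitochondrially encoded genes held 17.3% to 19.4% of TPM in JuB2 and 11.6% in EC. Of them 12 were above EC in all 4 JuB2 libraries and 1, COX3, was below, at 11529 to 12513 TPM in JuB2 and 16096 TPM in EC. ND2, a subunit of complex I, was at 6308 to 8372 TPM in JuB2 and 2690.0 TPM in EC.

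Immediate early genes, which are induced within minutes by serum and other stimuli, were lower for 5 of 16 and higher for 0. FOS was at 5.02, 4.18 and 5.63 TPM in the scramble libraries and 5.18 TPM in untreated JuB2, against 432 TPM in EC. FOSB was at 2.64, 3.71 and 2.19 TPM in the scramble libraries and 2.03 TPM in untreated JuB2, against 200.2 TPM in EC, and NR4A1 and JUNB differed by -4.78 to -4.03 and -3.14 to -2.56. EGR1, the fifth, differed by -2.78 to -2.14. These 5 are the called members, so the rule itself puts them below EC in every JuB2 library. Of all 16, 11 were below EC in all 4 JuB2 libraries and 2 above.

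Genes of other lineages appeared on both sides. ESRP1, an epithelial splicing regulator, was at 64.9, 62.97 and 55.7 TPM in the scramble libraries and 72.9 TPM in untreated JuB2, against 3.27 TPM in EC, and OCLN, a tight junction protein, was at 17.01, 18.03 and 10.9 TPM in the scramble libraries and 13.97 TPM in untreated JuB2 and listed at 0 in EC. KRT18, a simple epithelial keratin, was listed at 0 in JuB2 and at 123 TPM in EC. CDH1 was listed at 0 throughout. Of neural genes, MAP2, a dendritic microtubule protein, was at 66.1 to 103 TPM in JuB2 and 1.83 TPM in EC, and SYT4, a synaptotagmin, was at 49.1 to 83.7 TPM in JuB2 and 1.25 TPM in EC, while NCAM1 and ENO2 were at most 0.6 TPM in JuB2 and at 21.4 and 61.2 TPM in EC. Neural genes were higher for 3 and lower for 3 of 7, with GAP43 (2.72 to 2.88) and NES (-4.48 to -3.53) as the others.

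Of 29 HOX genes with a row, which keep a record of body position in cultured cells, 9 passed the filter. HOXA9 was at 20.97, 15.97 and 17.5 TPM in the scramble libraries and 13.4 TPM in untreated JuB2, against 0.64 TPM in EC, and HOXD8 was at 51.98 to 53.3 TPM in JuB2 and 9.09 TPM in EC. HOXB2 was listed at 0 in JuB2 and at 12.8 TPM in EC, and HOXC6 was at 2.57, 0.78 and 0 TPM in the scramble libraries and 0 TPM in untreated JuB2, against 28.3 TPM in EC. The lists together hold 726 genes, of which 636 had a row of their own, 419 passed the filter, 29 were called higher and 108 lower.

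The genes furthest above EC came from no single list. CA2, carbonic anhydrase 2, was at 360.1, 341 and 337 TPM in the scramble libraries and 149 TPM in untreated JuB2 and was listed at 0 in EC. KRT75, a hair follicle keratin, was at 358, 331 and 330.5 TPM in the scramble libraries and 223 TPM in untreated JuB2, against 0.53 TPM in EC. TPD52, a vesicle trafficking protein of many tumours, was at 157, 143 and 148 TPM in the scramble libraries and 234 TPM in untreated JuB2 and was listed at 0 in EC. CA2 was lower in untreated JuB2 than in every scramble library and TPD52 was higher there, but all 4 JuB2 libraries stood far above EC for each.

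TFF1, a trefoil peptide of mucous epithelia, was at 85.5 to 103 TPM in JuB2, TMEM40 at 40.9 to 51.05 TPM and TCF7, a Wnt-responsive factor, at 35.4 to 57 TPM, and all 3 were listed at 0 in EC. ABCB1, the drug efflux pump P-glycoprotein, was at 68.9, 72.6 and 69.5 TPM in the scramble libraries and 83.4 TPM in untreated JuB2, against 0.54 TPM in EC. FGF5, a growth factor, was at 89.3, 85.6 and 85.3 TPM in the scramble libraries and 74.7 TPM in untreated JuB2, against 0.71 TPM in EC. As ratios of TPM these are 128 to 155-fold for ABCB1 and 105 to 126-fold for FGF5, with EC near 0. Of the others, KRT80, a type II keratin, TSPAN13, a tetraspanin, LIPC, hepatic lipase, and PLK2, a polo-like kinase, were at 67.9 to 92.8, 72.9 to 104, 67.5 to 107 and 144 to 185 TPM in JuB2 and at 0.1, 0.65, 0.69 and 2.75 TPM in EC.

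Genes furthest below EC were mostly the matrix and secreted genes already described. Of the 15, ASPN, the proteoglycan asporin, FABP3, a fatty acid carrier, and PTX3, a secreted pentraxin of innate immunity, were listed at 0 in all JuB2 libraries and at 833, 591 and 388 TPM in EC. SEMA3C, a secreted guidance cue, was at 0.33, 0.45 and 0.48 TPM in the scramble libraries and 0.16 TPM in untreated JuB2, against 473 TPM in EC. TPT1, a protein made in nearly all cells, was the called gene with the highest level in EC, at 1352, 1350.1 and 1333 TPM in the scramble libraries and 1476 TPM in untreated JuB2, against 6595 TPM in EC. TPT1 has processed copies elsewhere in many genomes, and how reads shared among copies were assigned is not given, so its value is uncertain.

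**Figure D4:**
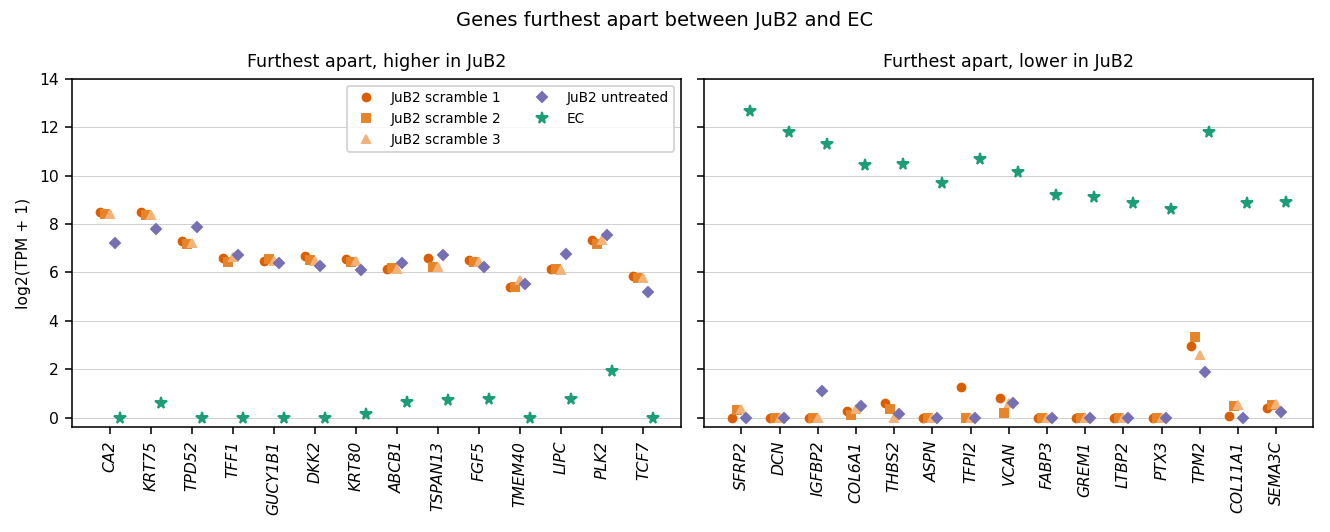
Levels of the genes furthest above EC (left; 14 of the 15 are drawn) and the 15 furthest below (right), as log2(TPM + 1), with 1 symbol per library and no error bars. The 4 JuB2 libraries cluster within each gene, with CA2 lowest in untreated JuB2 and TFPI2 above 0 only in scramble 1. The star for EC stands apart on the other side in every gene drawn, as the choice of these genes requires.

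The positions of the genes were then examined, a grouping chosen after the values were seen. Gene order came from the RefSeq gene table of the dog assembly UU_Cfam_GSD_1.0, which is not the build of the files, and was used only to say which genes neighbour each other. Only genes past the 10 TPM filter that matched a protein-coding gene there were ordered. Neighbours in a row may therefore have other genes between them. Of the 8418 genes, 7473 were matched, and 39 chromosomes held 20 or more of them. Over the matched genes the median difference was 0.28, with 4.94% called higher. The chromosome that carries CA2 and TPD52 had the highest median of the 39, 1.24 over 81 genes, with 24 of them higher (29.6%). The next were the chromosome of DKK2 and FGF5, with a median of 1.10 over 83 genes and 15.7% higher, and that of CHRNA5 and TRPS1, with 0.95 over 151 genes and 12.6% higher. The lowest was the chromosome of ETNK2 and LYPLAL1, with -0.40 over 64 genes.

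Along the chromosome of CA2 the difference was not spread evenly. The 32 genes that come before TERF1 in the gene order, MCM4 to MSC, had a median of -0.31, with 9 above EC in all 4 JuB2 libraries, 1 higher and 3 lower. The 49 genes beginning with TERF1 had a median of 2.05, with 47 above EC in all 4, 23 higher and 1 lower. The break was placed by eye after seeing the values, so the contrast between the stretches is a description. Under trimmed-mean scaling the medians of the stretches were -0.66 and 1.68, with 43 of the 49 above EC in all 4 and 16 higher, and the chromosome kept the highest median, 0.87. As deposited, within the second stretch 37 neighbours in a row, PKIA to MTERF3, were above EC in every JuB2 library, with a median of 2.15, and 21 of them were called.

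Several genes described above lie in that run. Besides CA2 and TPD52 they are CCNE2 and ESRP1. NBN, part of the complex that senses DNA breaks, was at 164, 169.6 and 150.1 TPM in the scramble libraries and 176 TPM in untreated JuB2, against 44.1 TPM in EC. CA13, a neighbour of CA2 from the same enzyme family, was at 67.8, 68.1 and 67.6 TPM in the scramble libraries and 109.7 TPM in untreated JuB2, against 1.19 TPM in EC. WWP1, a ubiquitin ligase, was at 113, 94.8 and 94.2 TPM in the scramble libraries and 99.1 TPM in untreated JuB2, against 22.4 TPM in EC, and E2F5, a cell cycle transcription factor, at 45.9 to 77 TPM in JuB2 and 25.4 TPM in EC. The run is defined by its members being above EC, so their shared side is not a finding.

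Other long runs were found by the same count. There were 53 runs of 10 or more neighbours above EC in all 4 JuB2 libraries and 5 below, beside 53.4% and 32.6% of matched genes on these sides. This balance depended on the scaling: under trimmed-mean scaling there were 27 runs above and 27 below, beside 40.6% and 45.8%, and under quantile normalization 40 and 13. The run that starts with PKIA ended at CCNE2 after 33 genes under trimmed-mean scaling and was the longest above EC there, while under quantile normalization the longest, 34 genes, ran from CHCHD4 to RAD18. These recounts were added after seeing the data. As deposited, the second longest above EC, 34 genes from CHCHD4 to RAD18, had a median of 1.62 with 10 called, and includes PPARG, FANCD2 and OGG1. As deposited, the longest below EC held 13 genes, UACA to UBL7, with a median of -1.55. Another below EC, of 12 genes, starts with CCND1.

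**Figure D5:**
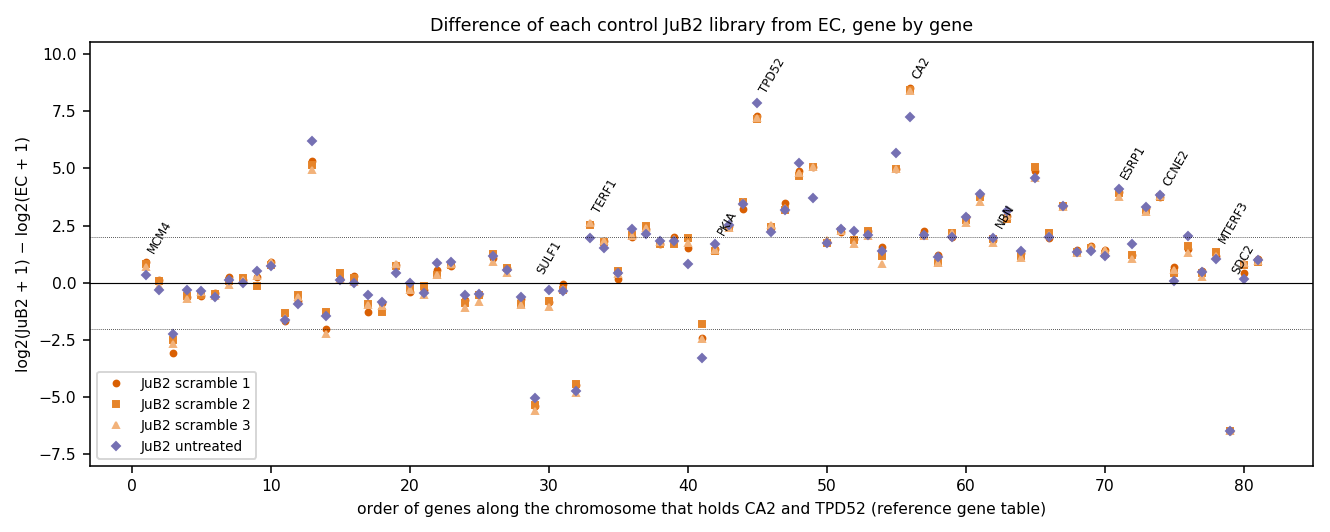
Difference of each control JuB2 library from EC, as log2(TPM + 1) (vertical axis), for the 81 genes of the chromosome that holds CA2 and TPD52, in gene order (horizontal axis, order only); symbols are the 4 JuB2 libraries, the solid line marks no difference and dotted lines 4-fold. Points scatter about 0 up to MSC and, from TERF1 on, lie above 0 in all 4 libraries for 47 of 49 genes.

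The JuB2 libraries did not always give the same answer. For 507 genes the 4-fold limit against EC was passed in some JuB2 libraries and not in others, and 57 genes spanned 2 or more on the log2 scale over the 4. AGO2, which carries small RNAs and is itself part of the shRNA machinery, was at 36.3, 34.5 and 35.2 TPM in the scramble libraries and 13.97 TPM in untreated JuB2, against 6.79 TPM in EC, so that the scramble libraries were past 4-fold and the untreated one was not. ATF5, a stress-responsive factor, was at 11.2, 6.63 and 5.78 TPM in the scramble libraries and 40.4 TPM in untreated JuB2, against 39.8 TPM in EC. For ATF5 untreated JuB2 was close to EC and the scramble libraries were below both.

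OGN, the proteoglycan osteoglycin, was at 19.9, 29.4 and 22.6 TPM in the scramble libraries and 7.14 TPM in untreated JuB2, against 108 TPM in EC. EFHD1, a calcium-binding mitochondrial protein, PUS10, a pseudouridine synthase, and TCF4, a basic helix-loop-helix factor, were also higher in every scramble library than in untreated JuB2, with untreated JuB2 at 3.29, 2.34 and 2.79 TPM and EC at 28.3, 16.8 and 21.7 TPM. YPEL3, YPEL2, SUGCT and MAFF, a small Maf factor, were lower in every scramble library than in untreated JuB2, and EC was above all 4 JuB2 libraries for each, at 77.8, 10.4, 17.5 and 68.1 TPM. Untreated JuB2 is a single library, so the effect of the hairpin vector and the difference of that library cannot be told apart.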

How the data were processed

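RNA sequencing was carried out on total RNA of dog cells, and libraries were made with the NEBNext Ultra kit, per the labels. The deposited table holds TPM values per gene and library that the authors computed, and each library sums to 1000000 over 30424 genes. STAR, RSEM and the build CanFam3.1 are named in the submitters' processing notes, with no role or version. Whether counting used strand, and how reads shared between genes were treated, no source used here says. TPM keeps no depth, so no counting interval was computed and no count model was used. An exact 0 may be a failed estimate, so such a gene is only said to be listed at 0 and gets no fold.

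Python 3.11.15 with pandas 2.3.3 and numpy 2.4.6 was used. For each gene log2(TPM + 1) in EC was subtracted from that in each of the 4 control JuB2 libraries, and genes at least 4-fold apart in all 4 were called, among genes at 10 TPM or more in EC or in all 4. The rule was checked on simulated data. EC is single, so no test was made. Levels printed as a range over JuB2 are the lowest and highest of the 4 libraries. Alternatives were other pseudocounts, scalings and filters, a mean in place of all 4, and each library left out in turn.

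The genes named are KDM2B, the 15 called genes furthest apart in each direction by the smallest of the 4 differences, up to 4 called members of each of 33 gene lists, the endothelial lists and cell type markers, the 10 most abundant genes of each side, and the 5 genes in each direction that best separate untreated from scramble JuB2 among those past the fold in part of the libraries. FN1, SPARC, FBLN1, AGRN, WNT5A, IGFBP4, IGFBP6, MCM2, EGLN3, EGR1, GAP43, NES, MKI67, TOP2A, CDKN2A, CDKN1A and the genes named by position were chosen after their values were seen. The members, lists and markers were chosen with earlier results of these data known. Genes match by a symbol with a row of its own, which 7628 of the 8418 have, and 90 listed genes without one are not analysed here. A few genes that the rule takes are not reported here. Neighbours come from the RefSeq gene table of the assembly UU_Cfam_GSD_1.0; since the files use another, no coordinates are given. A search of promoters for motifs was planned and not run. Figures were drawn with matplotlib 3.10.9.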

Additional observations from a re-analysis of the deposited data

How the results depend on the processing

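The count of genes higher in JuB2 than in EC, 419, became 221 with a pseudocount of 5 TPM and 257 under trimmed-mean scaling, and stayed within 1.5 times under the other alternatives. The count lower, 524, and the number of listed genes called, 137, stayed within 1.5 times under every alternative run. The 257 were all among the 419, and the 620 lower under that scaling include all 524. Leaving out each JuB2 library in turn gave 439 to 489 higher, 534 to 547 lower and 137 to 141 listed genes. Under quantile normalization 330 were higher and 600 lower, and without mitochondrial genes 534 and 531. The 1 gene at least 4-fold apart between scramble and untreated JuB2 became 17 with a pseudocount of 0.1 TPM, 0 with one of 5 TPM, 5 with a filter at 5 TPM, 0 at 20 TPM, 25 with no filter, 13 with 10 TPM asked of at least 1 JuB2 library, 9 by the mean rule, and 2 to 5 with a scramble library left out. Dropping a scramble library asks fewer libraries to pass, and the mean rule does not ask it of each. Looser filters admit more genes and the 20 TPM filter fewer. A smaller pseudocount enlarges differences and a larger one shrinks them. Any other source of these moves was not tested. Among the lists and the single genes named by the rule, 474 values were marked as moved by more than the spread between JuB2 libraries or 1.5 times, and 1638 were not. A gene listed at 0 in all 4 JuB2 libraries has no spread, so it was marked even where its value stayed the same. DCN, for example, differed by -11.78 as deposited and under trimmed-mean scaling, and was so marked. The 474 thus overstate how many values moved. Under other pseudocounts, scalings and left-out libraries, 0 of the called single genes named by the rule changed the sign of their mean difference. The calling rule all but fixed this, because each differs by at least 2 on the same side in all 4 libraries. Trimmed-mean scaling lowered JuB2 by only 0.35 to 0.39, so the unchanged signs are no support for the calls. The sign of the other called genes was not checked. No paired analysis was possible because EC is a single library. The recount of neighbour runs under other scalings was added after seeing the data. EC cannot be left out, so how far its own variation carries into any value is unknown, and without depth no limit can be set for values near 0.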
